A study of Mus musculus with 19 samples.

Results

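The transcription factor genes Esrrb, Tfcp2l1, Klf2, Klf4, Klf5, Tbx3 and Zfp42, which mark the naive state of mouse pluripotent cells, were followed in 19 libraries. They were taken by gene name, and all 7 were found among the 12778 genes of the deposited expression matrix. The study asked what the miR-290 and miR-302 microRNA clusters contribute to reprogramming of mouse embryonic fibroblasts to induced pluripotent stem cells (iPSC). Expression was measured with QuantSeq, which reads the 3′ end of polyadenylated RNA, from 200 ng of total RNA per library with single-end reads of 50 bases. All cells were grown with LIF and serum. The iPSC were made with Oct4, Sox2 and Klf4, and were collected over 18 passages after reprogramming. Wild-type (WT) iPSC had 3 libraries, which the series' design text excepts from independent derivation. Knockout (KO) iPSC lacked the miR-290 cluster, the miR-302 cluster or both (double KO), and each of these groups had 2 independently derived colonies with 2 libraries per colony. Embryonic stem cells (ESC) lacking miR-290 or lacking miR-302 had 2 libraries each, and no WT ESC library was used here. A colony, a WT library or an ESC library counted as 1 sample. The WT libraries may come from a single derivation, and the labels of the ESC libraries name no colony or derivation. The p-values thus measure the spread between these samples only.

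Naive pluripotent stem cells resemble the epiblast of the embryo before implantation and renew themselves in the presence of LIF. LIF acts through its receptor and STAT3 on Klf4 and Tfcp2l1, WNT signalling relieves repression of Esrrb, and Klf2, Klf5, Tbx3 and Nanog interlock with them in a network of activators that keep each other expressed. Zfp42, also called Rex1, is a classical reporter of this state because it is shut off soon after cells leave it. The miR-290 cluster is the most abundant microRNA cluster of mouse ESC, the miR-302 cluster is best known from primed pluripotent cells, and a microRNA represses messenger RNAs that pair with its seed, bases 2 to 8.

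The mature microRNAs that link both clusters are shown because they carry an identical seed, which is in capitals. RefSeq sequences (GRCm38.p6) were matched by name for 10 mature 3p microRNAs of the clusters, 6 from miR-290 and 4 from miR-302. Sequences of miR-292a-3p and miR-302a-3p were sought too but not found by name, so both are missing from the counts and lines below. Of these, 5 shared the seed AAGUGCU, 3 from the miR-290 cluster on chromosome 7 and 2 from the miR-302 cluster on chromosome 3.
miR-291a-3p: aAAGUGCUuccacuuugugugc
miR-294-3p: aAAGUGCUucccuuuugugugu
miR-295-3p: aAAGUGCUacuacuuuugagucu
miR-302b-3p: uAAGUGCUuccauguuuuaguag
miR-302d-3p: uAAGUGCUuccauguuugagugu
The first 3 lines come from the miR-290 cluster and the last 2 from the miR-302 cluster, so this seed occurs in both. The microRNAs themselves are not among the genes of the matrix, so the deletions could not be checked in these libraries.

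Library totals ran from 6433259 to 24980302 reads. Library 2 of colony 1 of the miR-302 KO stood apart from its group, with a correlation across genes of 0.833 to 0.881 with the other 3 libraries, which correlated at 0.933 to 0.947 among themselves. The label iPSC was checked against 7 markers of pluripotent cells. They summed to between 2234 and 3670 CPM (reads per 1000000 reads of the library) in each sample of the WT and single KO iPSC and of the ESC, and to 62.0 and 83.3 CPM in the double KO colonies, over the 6 markers with recovered reads. All 7 were lower in the double KO than in WT, so the double KO cells, although labelled iPSC, had little of the RNA that defines such cells. Most of the sums in double KO colonies 1 and 2 was Pou5f1, the gene of Oct4 (27.0 and 22.6 CPM), and Sox2 (28.2 and 43.9 CPM). The iPSC were made with both factors, and whether transgene RNA entered their values was not tested. Of 11 fibroblast markers, 4 were measured, and they summed to between 3.24 and 14.4 CPM in every sample. Both measured primitive endoderm markers, of 7 listed, summed to between 0.265 and 9.03 CPM, with Gata4 at 0 reads in the double KO.

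In the double KO, all 7 naive-state factors were lower than in WT iPSC. The fall was deepest in Esrrb and Zfp42, which kept 0.173% and 0.521% of the WT mean CPM. Tfcp2l1, Tbx3 and Klf2 kept 1.25%, 2.07% and 2.29%, and Klf4 and Klf5 kept the most, 6.15% and 7.16%. All 7 were called at an adjusted p under 0.05 (limma, Benjamini-Hochberg over 12778 genes), where 21.5% of all genes were called lower. In all 7, every double KO library lay below every WT library, as it did for 27.0% of all genes. The median log2 difference of the 7 was −6.23, against 0.16 over all genes. Median-of-ratios scaling, which removes such shifts by design, brought the median of all genes to 0.02. The 7 markers of pluripotent cells, all called lower too, had a median of −7.64. In these bulk RNA samples, fewer expressing cells and less RNA per cell cannot be told apart.

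**Figure D1:**
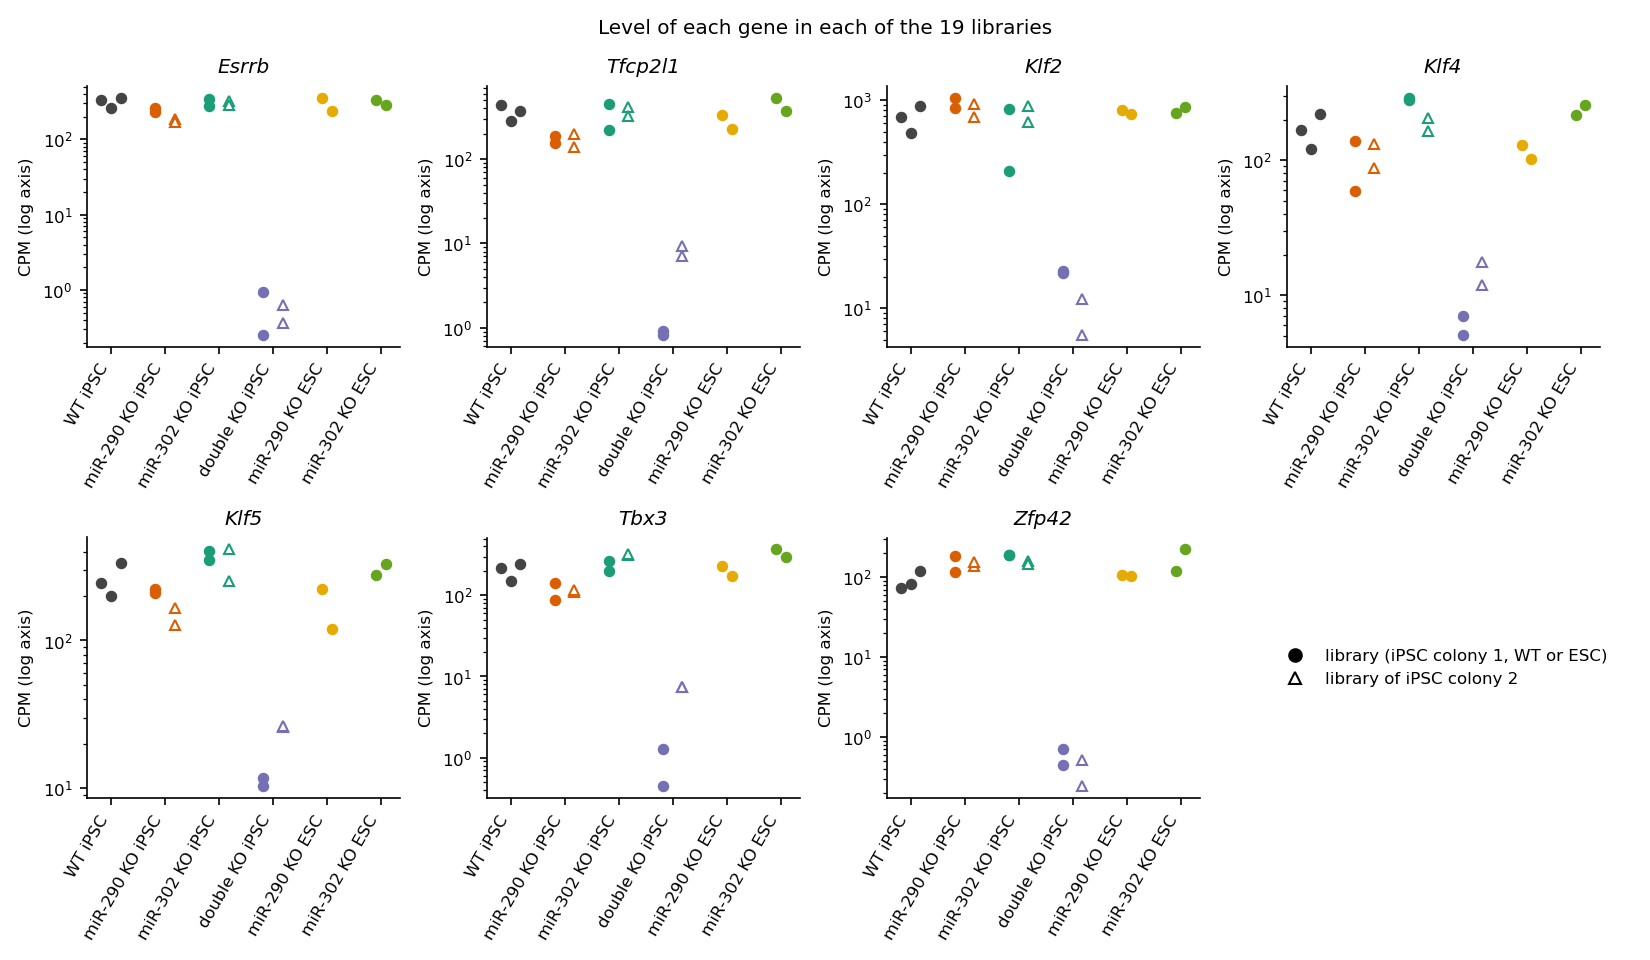
Level of each of the 7 genes (1 panel per gene, vertical log axis in CPM) in each of the 19 libraries, by group on the horizontal axis. Filled circles are libraries of iPSC colony 1, of WT iPSC or of ESC, open triangles are libraries of iPSC colony 2. In every panel the 4 double KO libraries lie below all others, for example at 0.253 to 0.926 CPM for Esrrb.

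Esrrb (chr12:86361117-86521628, GRCm38) encodes an orphan nuclear receptor that can stand in for Nanog in self-renewal. It was at 336, 258 and 349.5 CPM in the WT libraries and at 0.253, 0.926, 0.631 and 0.361 CPM in the double KO libraries, which are 4, 13, 11 and 6 reads. The groups did not overlap, and the libraries of both double KO colonies overlapped each other. The log2 difference was −8.94 (SE 0.22, adjusted p 7.26e-11), the largest of the 7 in this comparison, with a ratio of 579 between the mean CPM of WT and double KO. The deposited log2 values hold a small prior that pulls such low levels up. The authors' deposited table gave −9.49 (SE 0.32). Single KO colonies lay between 178 and 312 CPM and ESC libraries between 235 and 355.5 CPM.

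Tfcp2l1 (chr1:118627923-118685168) encodes a CP2-family factor downstream of STAT3. The WT libraries had 440, 284 and 368.5 CPM. The double KO libraries had 0.821 and 0.926 CPM in colony 1 and 7.17 and 9.32 CPM in colony 2, so that all were below WT and the colonies stood apart from each other. The log2 difference from WT was −6.95 (SE 0.60, adjusted p 1.68e-06). In the single KO iPSC, the colonies had 172 and 170 CPM without miR-290, below every WT library, and 338 and 371 CPM without miR-302, within the WT range.

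The Krüppel-like factors are zinc finger proteins that bind CACCC and GC-rich sites, some as activators and some as repressors, and Klf2, Klf4 and Klf5 overlap in function in ESC. Klf2 (chr8:72319062-72321654) was at 691, 483 and 874.5 CPM in WT. In the double KO it was at 22.9 and 21.7 CPM in colony 1 and at 12.4 and 5.53 CPM in colony 2. It was the one Krüppel-like factor of the 3 that was higher in colony 1 than in colony 2. The log2 difference from WT was −5.59 (SE 0.37, adjusted p 1.5e-07). Klf2 was the member on which the library standing apart had most effect: it read 207 CPM there, against 827, 889.5 and 615 CPM in the other miR-302 KO libraries.

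Klf4 (chr4:55527137-55532475) is also one of the 3 factors with which the iPSC were made, and whether transgene RNA entered its values was not tested. It had 169, 120.4 and 219 CPM in the WT libraries. In the double KO it had 7.01 and 5.06 CPM in colony 1 and 17.7 and 11.9 CPM in colony 2, all below the lowest WT library. The log2 difference from WT was −4.12 (SE 0.34, adjusted p 1.24e-06). Klf5 (chr14:99298691-99313412), which also acts in the trophectoderm, had 244, 200.3 and 335 CPM in WT. It had 11.7 and 10.3 CPM in colony 1 of the double KO and 26.0 and 26.5 CPM in colony 2. The groups again did not overlap, and the log2 difference was −3.89 (SE 0.37, adjusted p 3.64e-06). Of all 21 pairs of the 7 genes, Klf4 and Klf5 had the most similar differences from WT over the 5 other groups, with a root mean square difference of 0.20 on the log2 scale.

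Tbx3 (chr5:119670534-119684724), a T-box factor, had 215, 148 and 241 CPM in WT. The double KO libraries had 0.442 and 1.28 CPM in colony 1 and 7.40 and 7.52 CPM in colony 2. This is the split between colonies that Tfcp2l1 showed too, and the difference from WT was −6.23 (SE 0.60, adjusted p 4.65e-06). Tfcp2l1 and Tbx3 were the next closest pair of members, with a root mean square difference of 0.49.

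Zfp42 (chr8:43295067-43307009) encodes a zinc finger protein related to YY1. It was at 74.2, 82.2 and 119 CPM in WT and at 0.442, 0.713, 0.516 and 0.241 CPM in the double KO, which are 7, 10, 9 and 4 reads. As for Esrrb, both colonies were near 0, and the log2 difference was −7.24 (SE 0.28, adjusted p 8.47e-10). It was the only one of the 7 genes for which both miR-290 KO colonies (150.2 and 145.5 CPM) lay above all WT libraries, as did 25.5% of all genes. It was also the only one for which all 4 miR-302 KO libraries (189, 189.9, 157.5 and 148 CPM) did, as did 4.70% of all genes. Neither of these differences was called (0.70 and 0.92 on the log2 scale, adjusted p 0.231 and 0.263).

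**Figure D2:**
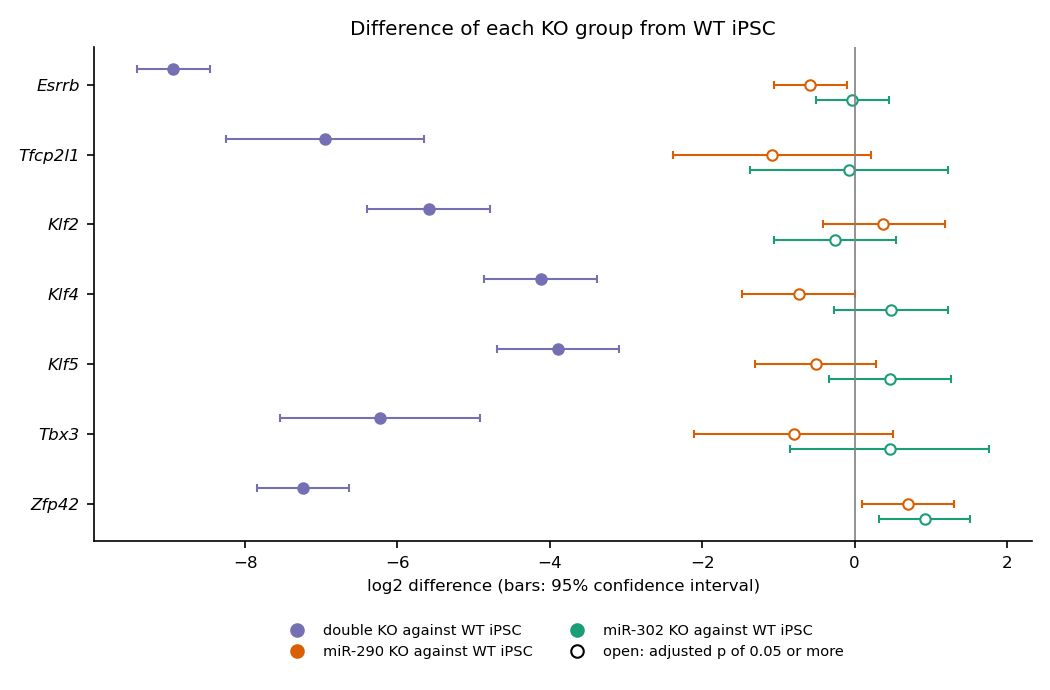
Log2 difference from WT iPSC (horizontal axis) of each gene in the double KO, the miR-290 KO and the miR-302 KO iPSC, with 95% confidence intervals. Filled points have an adjusted p under 0.05. Only the double KO points are filled, between −8.94 and −3.89, and the single KO points lie between −1.08 and 0.92.

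The double KO was next set beside each single KO, which asks what the loss of the second cluster adds. Against the miR-290 KO all 7 genes were lower, where 16.8% of all genes were called lower, with log2 differences from −8.36 for Esrrb to −3.38 for Klf5. Against the miR-302 KO all 7 were lower as well, where 18.4% of all genes were, from −8.91 for Esrrb to −4.36 for Klf5. These comparisons use the same double KO colonies and are not independent of each other or of the comparison with WT. The largest adjusted p among the 14 differences was 5.57e-05, for Tbx3 against the miR-290 KO.

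The joint loss was then compared with the sum of the separate losses. For Esrrb the single KO differences from WT, −0.58 without miR-290 and −0.03 without miR-302, add up to −0.61, while the double KO stood at −8.94. For Klf5 the sum was −0.05 and the double KO difference −3.89. For Zfp42 the single KO differences had the opposite sign and added up to 1.62, against −7.24 in the double KO. The test of double KO minus this sum called all 7 genes as lower, where 11.7% of all genes were. Its values were −8.86 for Zfp42 (SE 0.41), −8.33 for Esrrb (0.33), −5.88 for Tbx3 (0.90), −5.80 for Tfcp2l1 (0.89), −5.72 for Klf2 (0.55), −3.87 for Klf4 (0.51) and −3.84 for Klf5 (0.55). The weakest of these had an adjusted p of 0.000667, for Tfcp2l1.

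Within the double KO, the colonies differed more in some members than in others. Tbx3 was higher in colony 2 by 3.06 and Tfcp2l1 by 3.04 on the log2 scale, with mean CPM 8.65 and 9.44 times those of colony 1. Klf4 and Klf5 were higher in colony 2 by 1.27 and 1.25, and Klf2 went the other way, at −1.41. Esrrb (−0.06) and Zfp42 (−0.49) had overlapping libraries. The sum of the trophoblast markers differed between these colonies too, at 12.9 CPM in colony 1 and 42.5 CPM in colony 2 over the 6 measured, none at 0. Most of this gap was Cdx2, at 0.521 and 21.8 CPM, and Eomes was at 9.08 and 16.1 CPM. Ascl2 (0.985 and 2.265), Gata3 (1.897 and 2.064) and Krt7 (0.032 and 0.115) differed less, and Hand1 was higher in colony 1 (0.403 and 0.201). Against WT, 3 of the 6 were called lower in the double KO and none higher, where 21.5% and 27.4% of all genes were. The part of these markers in the difference between colonies was not tested. A difference of at least 1 was seen in 5 of the 7 genes and in 13.5% of all genes. In the same 5 the libraries of the colonies did not overlap, as in 58.1% of all genes. With 1 sample per colony there is no test of these differences. In the colonies of the miR-290 KO and of the miR-302 KO, none of the 7 genes differed by 1 or more, as 13.3% and 23.3% of all genes did, with Klf2 in the miR-302 KO at 0.84. Without the library that stood apart, Klf2 differed from WT by 0.24 in place of −0.26 in the miR-302 KO.

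**Figure D3:**
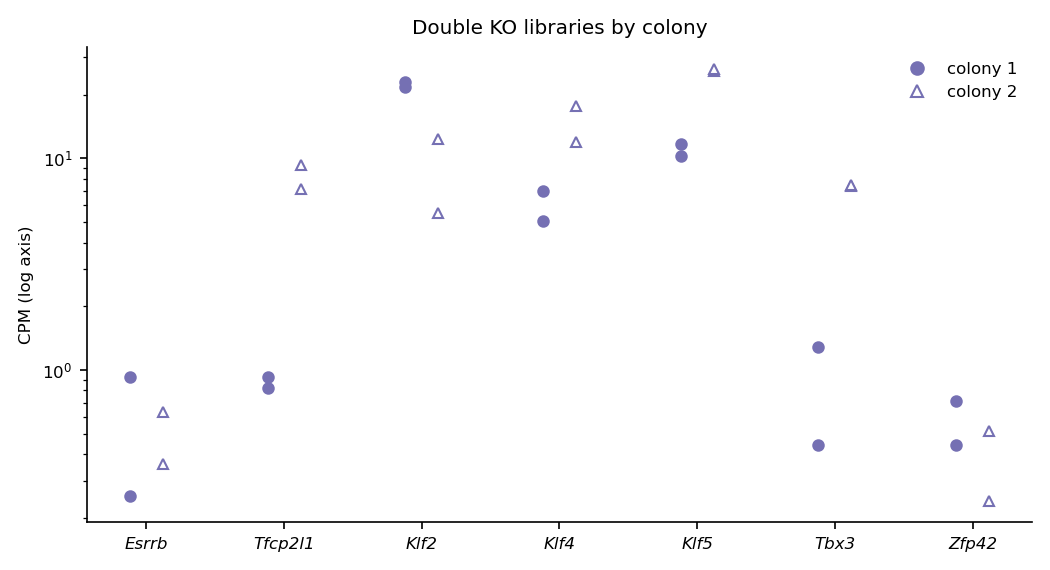
CPM (vertical log axis) of each gene in the 4 double KO libraries, with filled circles for colony 1 and open triangles for colony 2. Tfcp2l1, Klf4, Klf5 and Tbx3 are higher in both libraries of colony 2, Klf2 is higher in both libraries of colony 1, and the libraries of Esrrb and Zfp42 overlap.

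Neither single KO changed a naive-state factor past the threshold against WT. Without miR-290, none of the 7 genes was called (limma, 1.57% of all genes called), and 2 had an unadjusted p under 0.05, Esrrb and Zfp42, as did 16.7% of all genes. The 201 genes called in all fell to between 2 and 117 when any 1 WT library, miR-290 KO colony or miR-290 KO ESC library was left out, with 2 genes without miR-290 KO colony 2. The values were negative for Tfcp2l1 (−1.08, 95% interval −2.38 to 0.22), Tbx3 (−0.80, −2.11 to 0.51), Klf4 (−0.73, −1.48 to 0.01), Esrrb (−0.58, −1.06 to −0.10) and Klf5 (−0.51, −1.31 to 0.28). They were positive for Zfp42 (0.70, 0.10 to 1.30) and Klf2 (0.38, −0.42 to 1.19). Both miR-290 KO colonies lay below all WT libraries for Esrrb, Tfcp2l1, Klf4 and Tbx3, as in 12.4% of all genes. Every miR-290 KO library lay below every WT library for Tfcp2l1 and Tbx3, as in 6.26% of all genes. The libraries were at 187, 156, 200.2 and 139.7 CPM for Tfcp2l1 and at 143, 88.2, 110.5 and 116 CPM for Tbx3. With 1 or the other double KO colony left out of the fit, Tfcp2l1 was called lower (−1.08, adjusted p 0.0493 and 0.0483), since the spread between those colonies no longer entered the shared error. The authors' deposited table of this comparison holds no adjusted p-value above 0.05 and lists 3 of the 7 genes as lower. They are Tfcp2l1 (−1.23, SE 0.23), Tbx3 (−0.95, SE 0.23) and Esrrb (−0.71, SE 0.21). How libraries of 1 colony entered that table is not given in the sources used here.

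Without miR-302, none of the 7 genes was called against WT either (limma, 0.0313% of all genes called). That share is 4 genes, and 3 genes were called without the library that stood apart. Far more genes, still with none of the 7, were called when miR-302 KO colony 2 was left out. The group was then colony 1 alone, which holds that library. Zfp42 alone had an unadjusted p under 0.05 (0.00569), as did 15.1% of all genes. The values for Klf4, Klf5 and Tbx3 were 0.48 (95% interval −0.27 to 1.23), 0.46 (−0.33 to 1.26) and 0.46 (−0.85 to 1.77). Those for Klf2, Tfcp2l1 and Esrrb were −0.26 (−1.06 to 0.54), −0.07 (−1.37 to 1.23) and −0.03 (−0.51 to 0.45). The authors' deposited table of this comparison lists none of the 7. The double KO and single KO comparisons share the WT libraries, so a property of WT enters all of them.

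The single KO groups were compared with each other in both cell types, to ask whether one cluster mattered more for these genes. In iPSC, 6 of the 7 genes were lower in both miR-290 KO colonies than in both miR-302 KO colonies, as were 12.3% of all genes, and Klf2 was higher. In ESC, both miR-290 KO libraries were below both miR-302 KO libraries for 5 of the 7, as for 18.8% of all genes. These were Tfcp2l1, Klf4, Klf5, Tbx3 and Zfp42, which were lower in iPSC too, an order in both cell types that held for 5.78% of all genes. None of the 7 was called in iPSC (limma, 2.25% of all genes called) or in ESC (0.587%), with 3 and 2 of the 7 at an unadjusted p under 0.05, as were 18.5% and 12.8% of all genes. Over all genes the calls ranged from 15 to 1279 in iPSC and from 4 to 357 in ESC with 1 sample left out. The lowest counts came with miR-290 KO colony 2 left out in iPSC and 1 of the miR-290 KO libraries in ESC. The highest came without miR-302 KO colony 2, which leaves colony 1 with the library that stood apart, and without miR-302 KO ESC library 1. With only the library that stood apart left out, 327 genes were called in iPSC. Klf4 and Klf5 were among the members with an unadjusted p under 0.05 in both cell types, and neither was called. With either double KO colony left out of the fit, Tbx3 was called lower in iPSC (−1.26, adjusted p 0.0349).

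Klf4 had 99.4 and 109.9 CPM in the miR-290 KO iPSC colonies against 285 and 186 CPM in the miR-302 KO colonies. In ESC it had 130.5 and 103 CPM without miR-290 against 217 and 258 CPM without miR-302. The log2 differences were −1.21 (SE 0.38, adjusted p 0.11) in iPSC and −1.03 (SE 0.38, adjusted p 0.266) in ESC. Klf5 had 218 and 146 CPM against 379 and 334 CPM in iPSC, and 223 and 119 CPM against 279 and 329 CPM in ESC, with differences of −0.98 and −0.89. When the difference was averaged over both cell types, a comparison added after these values were seen, Klf4 was lower in the miR-290 KO (−1.12, SE 0.27, adjusted p 0.0255), where 1.56% of all genes were called lower. Klf5 was next, at −0.94 (adjusted p 0.0664). With either double KO colony left out, Klf5, Tbx3 and Tfcp2l1 were called lower as well. The call of Klf4 was lost in 7 of 22 alternatives, with adjusted p between 0.00954 and 0.116 over all of them, and it was lost without any 1 of 6 samples: either miR-290 KO colony, either miR-290 KO ESC library, miR-302 KO colony 1 or miR-302 KO ESC library 2. Trophoblast markers had higher sums in the miR-290 KO. They summed to 86.2 and 95.3 CPM in the miR-290 KO colonies and to 40.1 and 49.5 CPM in the miR-302 KO colonies, over the 6 of 7 that were measured, none of them at 0. In ESC the sums were 73.0 and 106.3 CPM against 46.8 and 48.6 CPM. Of the 6, none was called between the single KO groups in iPSC, 1 was in ESC (Krt7) and 3 were over both (Krt7, Hand1 and Gata3), all higher without miR-290, while Eomes was at −0.25 over both. Their part in the difference was not tested.

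**Figure D4:**
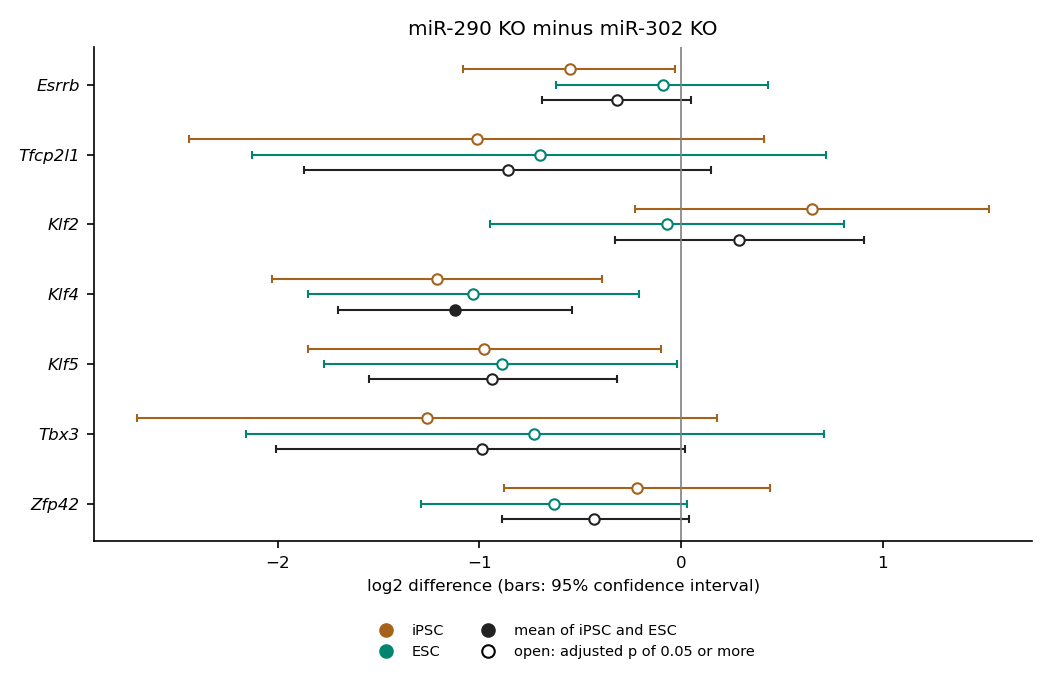
Log2 difference of the miR-290 KO from the miR-302 KO (horizontal axis) for each gene in iPSC, in ESC and as the mean of both, with 95% confidence intervals. Open points did not pass an adjusted p of 0.05. Klf4 and Klf5 lie between −1.21 and −0.89 in all 3 estimates, and the mean for Klf4 (−1.12) is the single filled point.

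Reprogrammed cells and ESC of the same genotype did not differ past the threshold in any of the 7 genes, nor in any gene of the matrix (limma). At an unadjusted p under 0.05 there were 492 genes for the miR-290 KO and 1343 for the miR-302 KO, and none of the 7 was among them in either genotype. For the miR-302 KO the count over all genes rests on single samples. Genes were called without either miR-302 KO colony, without ESC library 1 and without either double KO colony, by far the most without miR-302 KO colony 2. None of the 7 was among them. Without miR-302 KO colony 2 the group was colony 1 alone, which holds the library that stood apart. With only that library left out, 0 genes were called. For the miR-290 KO, 7 genes were called without colony 1, none of them a member. For the miR-290 KO the values ran from −0.81 for Tbx3 (95% interval −2.25 to 0.63) to 0.48 for Zfp42 (−0.18 to 1.14). For the miR-302 KO they ran from −0.55 for Klf2 (−1.43 to 0.33) to 0.21 for Klf5 (−0.66 to 1.08). Differences of about 1 on the log2 scale thus lie inside several of these intervals. Whether the genotype difference itself changed with cell type was tested as an added interaction, which called none of the 7 and no other gene (4 genes without miR-290 KO colony 1 and 5 without miR-302 KO colony 2, no member among them), with 552 genes and none of the 7 at an unadjusted p under 0.05. Ordered by mean CPM, the double KO was last for every gene. The highest group was WT iPSC for Esrrb (314 ± 49.4 CPM, SD, n = 3), miR-290 KO iPSC for Klf2 (877 ± 95.9, n = 2), miR-302 KO iPSC for Klf5 (357 ± 31.8, n = 2) and Zfp42 (171 ± 26.0, n = 2), and miR-302 KO ESC for Tfcp2l1 (455 ± 110.4), Klf4 (237.5 ± 28.5) and Tbx3 (330 ± 53.3, each n = 2). Among the groups above the double KO, no pair of groups that was tested differed past the threshold in any of the 7.

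Other genes of the naive network followed in part. Of 18 listed, the double KO had 13 lower and none higher than WT, where 21.5% of all genes were called lower and 27.4% higher. Their median log2 difference was −2.62. Nanog, the homeodomain factor at the centre of the network, was at 2.38 ± 0.431 CPM (SD, n = 2) against 684 ± 36.3 in WT (SD, n = 3), a difference of −8.10 on the log2 scale (SE 0.27, adjusted p 2.5e-10). Dppa3, a maternal factor that guards DNA methylation in the zygote, was at −7.58, and the adhesion molecule Pecam1 at −7.55. Of the 5 not called, Nr0b1, the nuclear receptor DAX1, was at 59.2 ± 2.96 CPM against 60.1 ± 33.7 (0.13), and Manba, which encodes beta-mannosidase, was at −0.10. In the miR-290 KO, 1 of the 18 was called against WT, Manba (2.51, SE 0.51, adjusted p 0.0314), and in the miR-302 KO none was (limma). Nr5a2, a nuclear receptor, is named after its values were seen. It was the single gene of the list called between the single KO groups in iPSC and in ESC, lower without miR-290 (−1.88, adjusted p 0.00882, and −2.15, adjusted p 0.00581). It had 16.1 ± 0.043 CPM without miR-290 and 59.7 ± 5.03 without miR-302 in iPSC, and 15.7 ± 6.04 and 67.8 ± 6.09 CPM in ESC (n = 2 each).

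Relatives of the 7 went in both directions. Of 14 other Krüppel-like factor genes 11 were measured. Against WT, the double KO had 4 of them lower and 3 higher, against 21.5% and 27.4% of all genes, with a median of 0.16, the same as over all genes. Klf12 was at 1.54 CPM in WT and without a read in the double KO. It was at least 32.9-fold lower there, by a floor of 3 reads over the group. Klf8 and Klf9 were at −3.51 and −3.33. The 3 higher genes, named after their values were seen, were Klf7 (2.43), Klf3 (2.18) and Klf13 (1.31), while Klf10 (0.33) was not called. Of 6 measured relatives of the other members, 2 were called higher, near the 27.4% of all genes. Tbx4 was higher at 21.2 ± 0.433 CPM against 0.649 ± 0.345 (4.82, adjusted p 7.47e-05), Tfcp2 was higher (1.69), and Esrra and Yy1 were not called (0.69 and −0.28). In the miR-290 KO, Klf6 was the single called gene of these relatives (1.77, SE 0.34, adjusted p 0.0281).

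Of 8 listed genes that carry the LIF and WNT signals, 6 were called higher in the double KO and none lower, where 27.4% of all genes were called higher. Their median log2 difference was 1.23. Gsk3b, the kinase that marks beta-catenin for destruction, was at 242 ± 22.1 CPM against 40.7 ± 6.32 (2.57, adjusted p 1.77e-05). Jak1, a kinase of the LIF receptor complex, was at 252 ± 7.96 against 63.6 ± 14.2 (2.00), and Socs3, a feedback inhibitor induced by STAT3, at 56.7 ± 6.58 against 15.2 ± 2.69 (1.85). Ctnnb1 (−0.10) and Gsk3a (0.30) were not called. Of 10 factors that promote exit from the naive state, 2 were called higher and 2 lower against WT, near the 27.4% and 21.5% of all genes, with a median of 0.17. Rbpj, which mediates NOTCH signals, was at −1.48, Zfp281 at −0.77 and Etv5 at 0.79, and Zfp706, named after its values were seen, at 0.58. Tcf7l1, the repressor that WNT signalling relieves, was not called (0.33).

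Factors of the formative and primed states, which succeed the naive state in the embryo, were lower too. Of 8 listed 7 were measured. In the double KO 6 of these were called lower, as were 21.5% of all genes, and none higher, with a median of −3.80. Foxd3, at 28.5 ± 7.57 CPM in WT, had no read in the 4 double KO libraries, which makes it at least 608-fold lower by the floor of 3 reads over the group. Pou3f1 was at −5.59 and Otx2 at −4.90, with 0.068 ± 0.055 CPM against 6.19 ± 3.49 for Otx2. Lef1 was not called (0.40).

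**Figure D5:**
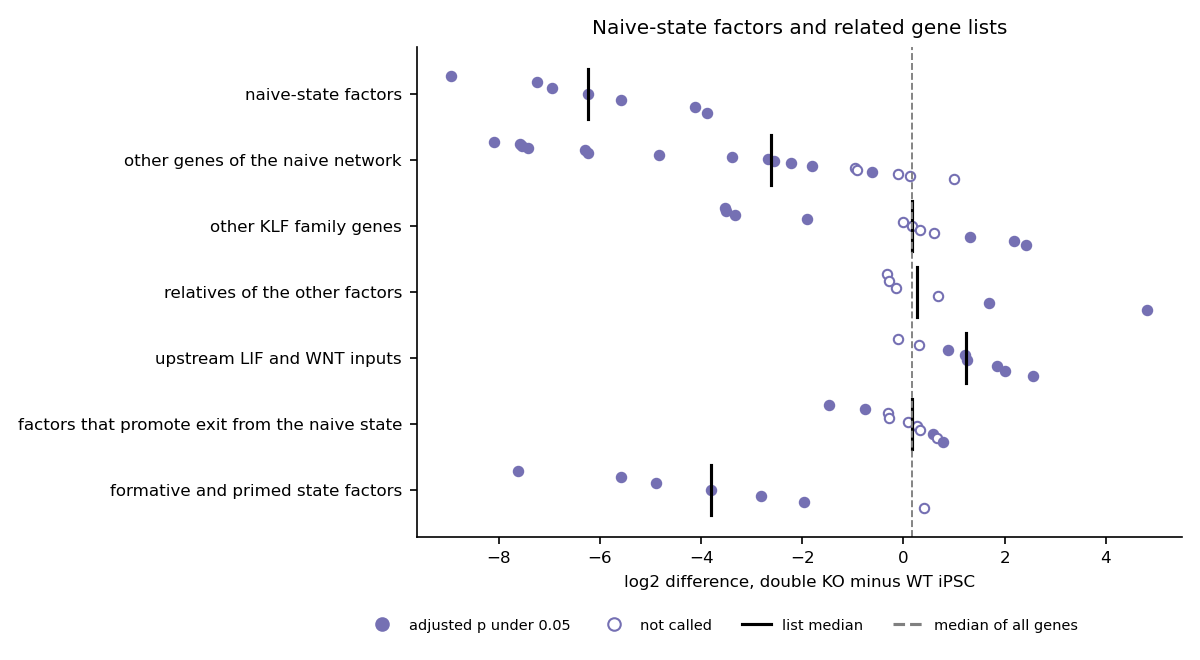
Log2 difference of the double KO from WT iPSC (horizontal axis) for each measured gene of the lists on the vertical axis. Filled points have an adjusted p under 0.05, black bars are list medians, and the dashed line is the median of all genes (0.16). All 7 naive-state factors and 13 of 18 other genes of the naive network lie to the left as filled points, and 6 of 8 LIF and WNT genes to the right. Klf12 and Foxd3, without a read in the double KO, are drawn at their fitted values.

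The genes whose group means were most like those of each member were ranked by the root mean square difference over the 5 differences from WT, among 7580 genes with at least 10 CPM in WT. For Esrrb these were 1700097N02Rik (0.24), Dppa2 (0.26) and Mcf2 (0.39). Those of Tfcp2l1 were Slc39a4, Inpp5d and Itpka (0.21 to 0.31), those of Klf2 were Pced1b, Tle3 and Ppp1r1a (0.21 to 0.24), and those of Tbx3 were Ankrd45, Dusp9 and Tsix (0.26 to 0.35). Klf4 and Klf5 had the same 3 genes, Atp1b1, Cdh1 and Platr14 (0.27 to 0.34). For Zfp42 they were Triml1 (0.38), Triml2 (0.40) and Calcoco2 (0.43).

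Triml1 and Triml2 are also the chromosomal neighbours of Zfp42. They lie 114.6 and 101.2 kb from it on chromosome 8 and were the only measured genes within 500 kb, a window chosen after the data were seen. Triml1 was at 0.090 ± 0.077 CPM in the double KO, 6 reads over 4 libraries, against 50.9 ± 5.45 in WT (−7.87, SE 0.30, adjusted p 9.59e-10). The annotated spans of both overlap at their ends, and how reads there were assigned is not given in the sources used here. Triml2 was at 0.137 ± 0.015 CPM, 9 reads, against 29.0 ± 2.65 (−6.80, SE 0.20, adjusted p 1.43e-10). In the miR-302 KO, Triml1 and Triml2 were not called (0.59 and 0.41), nor were they in the miR-290 KO (0.31 and 0.37). Around all 7 members, 38 measured neighbours within 500 kb were counted, and the double KO had 6 of them lower and 6 higher, shares below the 21.5% and 27.4% of all genes. Next to Tfcp2l1, Gli2, 148.9 kb away, was at 0.065 CPM against 45.1 CPM in WT (−7.81), and none of the neighbours of Klf4, Klf5 or Tbx3 was called.

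Seed matches were searched in the longest annotated 3′ untranslated region of each member, to show which of them hold letters that pair with seeds of these microRNAs. The letters AGCACTT pair with the shared seed. GGCACTT, which pairs with the seed of miR-290a-3p, was searched too. So was TGCACTT, which pairs with the seed of miR-291b-3p. The last 2 seeds were found in the miR-290 cluster only. The other seeds of the listed microRNAs, those of miR-293-3p, miR-302c-3p and miR-367-3p, were not searched. Esrrb, Klf2, Klf4, Klf5 and Zfp42 had no match to the 3 that were. Tfcp2l1 had 1 match to the shared seed and 1 to that of miR-291b-3p, and Tbx3 had 1 to that of miR-291b-3p. They are shown with the 7 matching bases in capitals (GRCm38, plus strand).
Tfcp2l1, chr1:118683205-118683211: ggggctcgatggccgAGCACTTc
Tfcp2l1, chr1:118685091-118685097: aaataaagcatatttTGCACTTg
Tbx3, chr5:119683160-119683166: ggtcaaatctgccagTGCACTTt
A match to any of the 3 was present in 32.1% of 11545 measured genes. Among genes whose region was within 20% of the same length, the share was 89.3% for the 7734 bases of Tfcp2l1 and 36.5% for the 1632 bases of Tbx3. All 7 members were lower in the double KO, those with a match and those without. Whether a match acts on these genes was not tested.

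Promoters were read from RefSeq (GRCm38.p6), 250 bases before to 50 bases after the start, for Esrrb (2 starts), Tfcp2l1, Klf2, Klf4 and Zfp42. They were searched on both strands for the letters GGGNGTGG, which Krüppel-like factors bind, for the octamer ATGCAAAT, which POU factors such as Oct4 bind, and for the GC box GGGCGG. Of 32851 promoters, 17.6% held the first, 1.7% the octamer and 35.7% the GC box. Zfp42 and Tfcp2l1 are shown because they were the members with a match to the Krüppel-like factor motif, and matches are in capitals.
Zfp42, chr8:43306960-43307259, minus strand: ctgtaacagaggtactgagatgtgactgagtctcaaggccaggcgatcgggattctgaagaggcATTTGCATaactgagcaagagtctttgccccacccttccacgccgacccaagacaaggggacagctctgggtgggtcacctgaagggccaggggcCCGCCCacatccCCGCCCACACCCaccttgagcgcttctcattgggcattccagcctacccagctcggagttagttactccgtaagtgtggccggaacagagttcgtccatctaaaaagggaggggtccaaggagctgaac
Tfcp2l1, chr1:118627695-118627994, plus strand: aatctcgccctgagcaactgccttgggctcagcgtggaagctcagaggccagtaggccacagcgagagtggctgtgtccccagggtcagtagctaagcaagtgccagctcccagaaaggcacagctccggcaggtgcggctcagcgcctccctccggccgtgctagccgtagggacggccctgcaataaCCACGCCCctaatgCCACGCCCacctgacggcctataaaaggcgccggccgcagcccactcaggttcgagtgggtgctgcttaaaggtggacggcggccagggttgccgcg
With the start counted as 0, the Zfp42 promoter had an octamer match at −186, GC boxes at −91 and −79 and a Krüppel-like factor match at −75, which overlaps the last GC box. Tfcp2l1 had Krüppel-like factor matches at −61 and −47. Klf4 and Klf2 held GC boxes (4 and 2), and neither promoter of Esrrb held any of the 3 motifs. Also searched were AAGGTCA for estrogen-related receptors (in 4.7% of promoters), AGGTGTGA for T-box factors (1.3%), TTCCNGGAA for STAT factors (1.1%) and AANATGGC for YY1 and Zfp42 (6.1%). None of the promoters of these 5 members held one. A match of letters is a description and shows no binding.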

How the data were processed

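QuantSeq libraries of 6 groups were used, 19 in all. The deposited matrix holds log2 values, which the values themselves show to be log2 CPM with a prior (2.41 reads on average) plus 1 constant per gene. Whole reads were recovered for 95.8% of genes (99.7% of their values within 0.02 of a whole read), with all 7 members among them, and CPM are from these reads. The tables deposited by the authors hold log2 fold changes, test scores, p-values and a mean normalized signal (baseMean). Per the submitters' processing notes, Trim Galore 0.66, STAR, Salmon 1.4.0, limma, DESeq2 1.34.0 and build mm10 were named, with no role or order.

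Differences were fitted with limma 3.58.1 in R 4.3.3 (lmFit, eBayes with trend) on the deposited log2 values of all 12778 genes. The libraries of a colony were averaged (13 samples, 7 residual degrees of freedom). The fit was also run on simulated data with independent noise, as a check of the code that does not test these calls. Genes with an adjusted p under 0.05 were called. Folds of low genes are understated by the prior. The floor of 3 reads covers counting error only. Members, lists and tests were chosen with earlier results of these data known. All 7 members were named in every comparison; of each other list, at most 3 called genes of the largest difference and at most 2 not called. In the matrix, 6 columns that matched no sample were not used.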

Additional observations from a re-analysis of the deposited data

Results flagged for a closer look

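For all 7 genes the loss of one cluster had a different effect with and without the other cluster, by the test of double KO minus the sum of both single KO differences. The values on the log2 scale were −8.33 for Esrrb, −5.80 for Tfcp2l1, −5.72 for Klf2, −3.87 for Klf4, −3.84 for Klf5, −5.88 for Tbx3 and −8.86 for Zfp42. Among groups of 4 libraries, no library stood out in any of the 7 genes by Dixon's test, over 21 sets of gene and group. The 4 libraries are 2 from each of 2 colonies, not independent values, and this test cannot flag a split between colonies. It did not flag Klf2 in library 2 of miR-302 KO colony 1 either, at 207 CPM.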

How the results depend on the processing

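Each result was recomputed under 22 alternatives (other scalings, filters, pseudocounts and samples), which gave 2112 values. They were differences of single genes and counts of members called. Of them, 2036 were labelled the same, which means that a difference kept direction and call or that a count stayed similar in size. All 7 genes stayed lower in the double KO than in WT, with adjusted p of at most 0.00119. Against WT, 1 gene was called in the miR-290 KO without double KO replicate 1 or 2, so that leaving out 1 sample gave counts from 0 to 1. Between the single KO iPSC, 1 gene was called with each library as a sample and 1 with the replicate block (Klf4, adjusted p 0.0366 and 0.0329), and leaving out 1 sample gave 0 to 1. Over iPSC and ESC together, an added comparison, the count was 2 with each library as a sample, with the replicate block, with median-of-ratios scaling and with recovered CPM, 3 with only the groups compared, 0 without a trend, and 0 to 4 with 1 sample left out.

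The replicate block changed no other call. Same-numbered libraries showed no shared deviation, with correlations from −0.32 to 0.32 over 66 pairs, against −0.41 to 0.44 over 82 other pairs. Groups this small cannot exclude a pairing by number.

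Signs turned for 31 values in 12 results, none of them called and none above 0.39 in size, and the cause was not tested. For miR-302 KO against WT, Esrrb (reported −0.03) was at 0.06 with the replicate block, 0.08 with median-of-ratios scaling and 0.05 without the library that stood apart, Tfcp2l1 (−0.07) at 0.04 with that scaling and 0.19 without that library, and Klf2 (−0.26) at 0.24 without it. Against miR-302 KO ESC, Esrrb (−0.01) was at 0.15 and 0.07 in the same order, and Klf4 (−0.04) at 0.11 with the scaling. With 1 sample left out, the ranges against WT were −0.16 to 0.06 for Esrrb, −0.24 to 0.08 for Tfcp2l1 and −0.68 to 0.16 for Klf2. Between iPSC and ESC they were −0.33 to 0.58 for Klf5 without miR-290, and −0.13 to 0.11 for Esrrb, −0.36 to 0.27 for Klf4 and −0.39 to 0.52 for Zfp42 without miR-302. Between the ESC groups they were −0.39 to 0.21 for Esrrb and −0.18 to 0.03 for Klf2. For the interaction with cell type they were −0.49 to 0.13 for Klf4, −0.54 to 0.37 for Klf5 and −0.05 to 0.87 for Zfp42.

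Median-of-ratios scaling moved the median of all genes from 0.14 to 0.02 for the miR-290 KO against WT, from −0.11 to −0.01 for the miR-302 KO, and from 0.23 to 0.01 between them in iPSC. Depth limits the double KO values of Esrrb and Zfp42, which rest on 34 and 30 reads over 4 libraries. Where leaving out 1 of 2 samples left a group with 1, that sample was assumed to vary like the other groups. Groups of 2 or 3 samples limit all comparisons of single KO cells.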
